A study of Mus musculus
Rattus norvegicus and Mus musculus with 6 samples.

Results

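Splicing factors and RNA helicases of mouse hematopoietic stem cells (SC) were taken as a set of 93 genes out of the 8102 genes that could be named on the array. The members were all named genes whose symbol begins as those of the SR proteins (Srsf), the SF3 subunits, the snRNP and Sm proteins (Snrp), the LSm proteins, the U2AF subunits, the Prp factors (Prpf), the hnRNP proteins, the DEAD-box (Ddx) and DEAH-box (Dhx) helicases and the numbered RNA binding motif (Rbm) proteins do. Ddx3x and Ddx3y were left out. The rule reads gene symbols only, but it was set with earlier results of these data known. A gene with several probes was represented by its brightest probe, and 26 members had several probes while 67 had 1.

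Total RNA of lin-/c-kit+ bone marrow SC was hybridized to 6 mouse bead arrays to ask how direct contact with heart muscle cells alters the transcriptome of the SC. In the coculture group (3 arrays), SC of male C57Bl/6 mice were kept for 48 h with neonatal ventricular cardiomyocytes of female Wistar rats (NRVCM) and were recovered by repeated fluorescence-activated sorting. In the monoculture group (3 arrays), SC of the same strain and sex were kept alone for 48 h, in wells that held more SC than the coculture wells. SC density and coculture therefore cannot be told apart. Each array came from its own preparation of SC and, for coculture, of NRVCM. Both groups are bulk RNA of magnetically enriched marrow cells, so that fewer cells of a type and less RNA per cell cannot be told apart.

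Splicing removes introns from precursor mRNA. SR and hnRNP proteins bind the precursor and guide the choice of splice sites, U2AF and the SF3 complexes mark the end of the intron and the branch site, and the spliceosome is assembled from small nuclear ribonucleoproteins (snRNP), each a small RNA wrapped in a ring of Sm or LSm proteins. DEAD-box and DEAH-box helicases use ATP to remodel RNA, not only in the spliceosome but also in ribosome assembly, translation, mRNA decay and the sensing of viral RNA. Most of these proteins are made by nearly every cell.

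Signals are normalized log2 values, on which a difference of 1 is a doubling, and they ran from 5.81 to 14.85 over all probes. An array's background limit was the level below which 95% of 38 probes for foreign sequences lay, at 6.64 to 6.72. Of the 93 members, 65 were above background on all 6 arrays, 17 were at background on all 6 and 11 were mixed. A probe's signal depends on its sequence, so a brighter probe does not show that its gene is expressed more, and where a member is named for the brightest probe of its family this describes the probe only. Precision was limited by the number of arrays, 3 in each group. Arrays correlated at 0.987 to 0.991 within coculture, at 0.99 to 0.993 within monoculture and at 0.967 to 0.977 between groups.

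Of the 13 genes of the progenitor list, Lmo2, Runx1 and Ptprc were measured and did not pass the test. Kit, by which the SC were magnetically enriched before culture, had no named probe, so that the cell label could not be checked by it. Coculture replicate 2 stood apart at 2 of the 4 measured Y-linked genes, while Ddx3y and Uty were at background on all 6 arrays. Eif2s3y had a signal of 8.93 and Kdm5d of 6.94 there, while both were at background on the other 5 arrays although all mice were labelled male. The mean signal of 6 measured heart muscle genes (of 17 listed) was 6.70 to 6.72 in coculture and 6.65 to 6.70 in monoculture. Myh6, Myh7 and Ryr2 of heart muscle and all 6 measured fibroblast genes were at background on all 6 arrays. The heart muscle genes Mybpc3 and Atp2a2 were above background on all 6 arrays. Mybpc3 had signals of 6.87, 6.98 and 7.20 in coculture and of 6.81, 6.84 and 6.79 in monoculture and did not pass (adjusted p = 0.262 in limma). The mean signal of the 6 measured macrophage genes was 9.29 to 10.31 in coculture and 11.41 to 11.54 in monoculture, and 3 of them (Cd68, Mertk and Gpnmb) passed as lower. The mean signal of 10 measured proliferation genes (of 22 listed) was 9.65 to 9.98 in coculture and 8.97 to 9.15 in monoculture. Of these, 6 passed as higher. Mki67, Pcna, Tyms and Bub1 did not pass, and Tyms was lower on all coculture arrays. The mean levels of the macrophage and proliferation genes moved with the groups, and their part in the results on splicing genes was not tested.

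More splicing genes were higher than lower in cocultured SC, and the Sm and snRNP family held 5 of the 11 that passed as higher. Of the 93 members, 11 were higher and 1 was lower at an adjusted p under 0.05 (limma, with Benjamini-Hochberg adjustment over all 46628 probes), and 81 did not pass. The background share of higher genes was 5.37% of all named genes and 3.25% of all probes, against 11.8% of the members. The background share of lower genes was 4.65% of named genes and 3.22% of probes, against 1.08% of the members. Over all probes, 1514 passed as higher and 1500 as lower in coculture. The paper counts 1500 transcripts as upregulated and 1514 as downregulated, the same numbers on opposite sides. It states a fold condition for both counts, more than 1.5-fold for the upregulated ones, while the probe counts given here carry none. With more than 1.5-fold required as well, 806 probes passed as higher and 898 as lower, fewer than the paper counts. The reasons for the opposite sides and for the lower counts were not tested. All directions given here rest on the array titles. The differences of the members ran from -0.77 to 1.15 with a median of 0.11, and the median of all named genes was 0.00. The difference was positive for 66 members. In 30 members all coculture arrays were above all monoculture arrays, which is 32.3% against 14.6% of named genes and 11.6% of probes, and in 6 members all were below, against 13.6% of named genes and 11.6% of probes.

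The changes that passed the test were small. Of the members, 3 passed as higher by more than 1.5-fold (Lsm3, Snrpa and Lsm12), or 3.23% of them. This is close to the 2.97% of all named genes and above the 1.73% of all probes that did. None passed as lower by that much, against 2.81% of named genes and 1.93% of probes. Larger differences that did not pass reached 1.15 in Hnrnpa2b1 and -0.77 in Rbm47. The calls also depended on signal strength. Among probes with a mean signal of 9 to 11, 18.5% of 27 members and 13.3% of 1152 named genes passed as higher, and from 11 upward 21.4% of 14 members and 16.0% of 612 named genes did. In the same ranges no member passed as lower, and 10.7% and 9.8% of named genes did. Between 7 and 9, 4.76% of 21 members and 8.93% of 1691 named genes were higher. Under 7, near background, 6.45% of 31 members and 0.71% of 4647 named genes were higher. Without coculture replicate 2, 17 members (18.3%) and 5.38% of named genes were higher. Without any other array the member count was lower than with all 6, down to 3 members (3.23%) against 2.16% of named genes without monoculture replicate 1, a share near the background. It was 4 (4.30%) against 2.63% without coculture replicate 1, 5 (5.38%) against 3.43% without coculture replicate 3, 7 (7.53%) against 3.15% without monoculture replicate 2 and 9 (9.68%) against 4.49% without monoculture replicate 3.

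**Figure D1:**
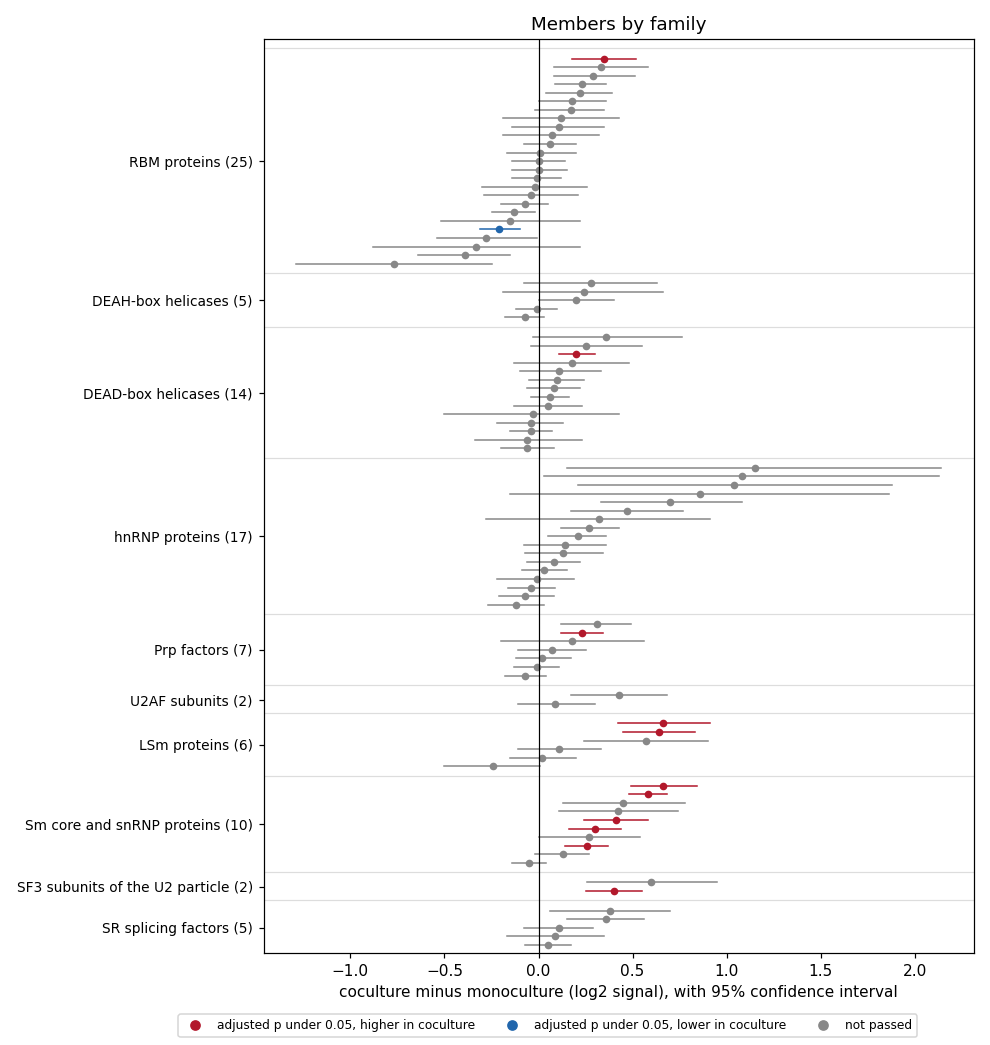
Difference between the mean log2 signal of coculture and monoculture (horizontal axis) for each of the 93 members, grouped by family on the vertical axis with the number of genes in parentheses. Points are differences at the brightest probe and lines are 95% confidence intervals; the 11 members that passed as higher are red, the 1 that passed as lower is blue, and 5 of the red points are snRNP genes.

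Among the factors that first recognize an intron, the SR proteins did not pass the test, and 1 of 4 U2AF and SF3 subunits did. Over all named genes, 5.37% passed as higher, and in 14.6% all coculture arrays were above all monoculture arrays. Sf3b5, the small subunit of the SF3B complex that binds at the branch site, had signals of 12.17, 12.31 and 12.26 in coculture and of 11.78, 11.80 and 11.95 in monoculture. The groups did not overlap, and the difference was 0.40 ± 0.0641 (SE, n = 3 and 3, adjusted p = 0.0189 in limma). Sf3a1, a subunit of the partner complex SF3A that was chosen here after its values were seen, had signals of 10.92, 10.57 and 10.96 in coculture and of 10.16, 10.01 and 10.46 in monoculture. Its difference was larger at 0.60, but the arrays of each group lay farther apart and it did not pass (adjusted p = 0.0666 in limma).

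U2af1, the U2AF subunit that contacts the end of the intron, had signals of 10.99, 10.58 and 10.88 in coculture and of 10.38, 10.45 and 10.34 in monoculture. All coculture arrays were above all monoculture arrays, with a difference of 0.43 (95% interval 0.17 to 0.68) that did not pass (adjusted p = 0.0768 in limma). U2af2, the larger subunit, had a difference of 0.09 (-0.11 to 0.30).

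All 5 SR genes were above background on all arrays and had positive differences, from 0.05 to 0.38 with a median of 0.11. Srsf2, with the brightest probe of them, had signals of 13.04, 12.67 and 12.82 in coculture and of 12.54, 12.63 and 12.23 in monoculture. The lowest coculture array was just above the highest monoculture array, and the difference of 0.38 (0.06 to 0.70) did not pass (adjusted p = 0.19 in limma). Srsf1, a founding member of the family, also did not overlap between groups (difference 0.36, adjusted p = 0.067). Srsf3, Srsf5 and Srsf10 overlapped between groups, at differences of 0.09, 0.11 and 0.05.

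The Sm core and the proteins particular to a snRNP held the largest number of calls of any family. Of 10 genes, 5 passed as higher (50.0%, against 5.37% of all named genes) and none as lower, and the median difference was 0.36. Among named genes with a mean signal of 9 to 11 the share of higher genes was 13.3%, and from 11 upward it was 16.0%. Snrpg, a subunit of the Sm ring that all major spliceosomal snRNP share apart from that of U6, had signals of 13.71, 13.63 and 13.68 in coculture and of 13.12, 13.08 and 13.09 in monoculture. Replicates lay within 0.1 of each other, so that a 1.49-fold difference gave the lowest adjusted p of all members (difference 0.58 ± 0.0417, SE, n = 3 and 3, adjusted p = 0.00176 in limma). Snrpa, the A protein of the U1 snRNP that recognizes the start of the intron, had signals of 10.35, 10.39 and 10.57 in coculture and of 9.79, 9.69 and 9.84 in monoculture. It was 1.58-fold higher (difference 0.66, adjusted p = 0.00653 in limma).

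Snrpd3, another subunit of the Sm ring, had signals of 12.65, 12.59 and 12.76 in coculture and of 12.14, 12.30 and 12.33 in monoculture, a difference of 0.41 (adjusted p = 0.0233 in limma). The ring subunit Snrpb had signals of 10.41, 10.26 and 10.38 in coculture and of 10.13, 10.02 and 10.01 in monoculture, a difference of 0.30 (adjusted p = 0.0362 in limma). Snrpc, the C protein of the U1 snRNP, had signals of 8.32, 8.27 and 8.35 in coculture and of 8.02, 8.03 and 8.12 in monoculture, a difference of 0.26 (adjusted p = 0.029 in limma). In each of these 3 genes every coculture array was above every monoculture array, and the fold changes stayed under 1.5. Snrpb and Snrpc were named here after their values were seen.

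The other snRNP genes did not pass. The ring subunits Snrpf and Snrpd2 had differences as large as those of the genes that passed, at 0.45 (0.13 to 0.78, adjusted p = 0.125 in limma) and 0.42 (0.11 to 0.74, adjusted p = 0.141 in limma), with a wider spread. Snrpe lay at 6.70 to 6.78 on all arrays, at the background limit, and Snrpb2 of the U2 snRNP was at background throughout. A probe at background does not show that its gene is silent, because 13 members with a bright probe had another probe at background on all 6 arrays. Snrpn, a close copy of Snrpb that is best known from neurons, was at background in monoculture and reached 7.01, 6.74 and 6.60 in coculture, where the last array was at background. Whether probes for such close copies bind each other's RNA was not tested.

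**Figure D2:**
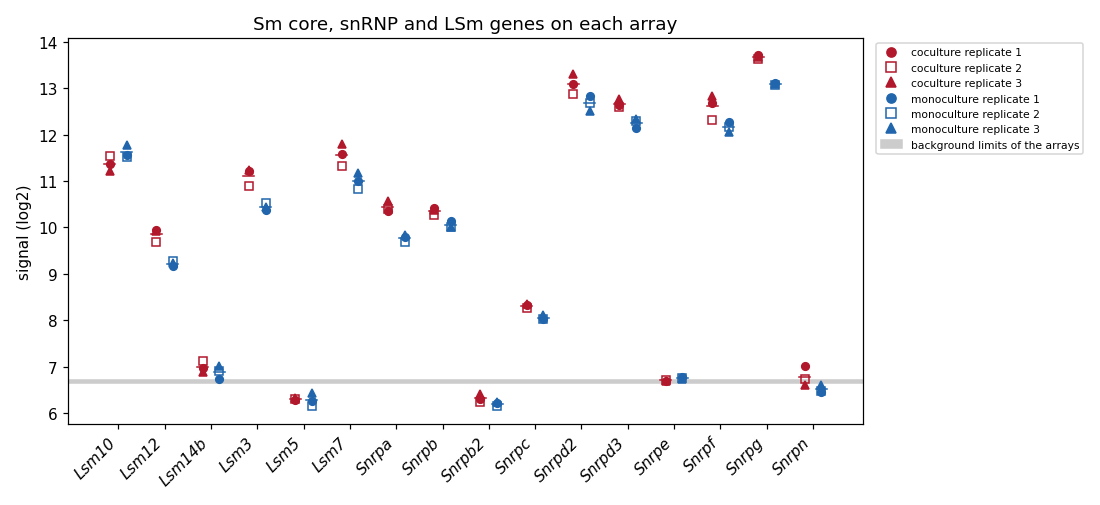
Log2 signal (vertical axis) of the 10 Sm and snRNP genes and the 6 LSm genes on each of the 6 arrays, with coculture in red and monoculture in blue, symbols for the replicates, short lines for group means and a grey band for the background limits. The 3 coculture arrays sit above the 3 monoculture arrays in 10 of the 16 genes, and in 14.6% of all named genes. In Snrpg they lie at 13.63 to 13.71 against 13.08 to 13.12.

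Of the 6 LSm genes, which are built like Sm proteins, 2 passed as higher (33.3%, against 5.37% of all named genes). Among named genes with a mean signal of 9 to 11, 13.3% did. The family median was 0.34. Lsm3, a subunit of the ring on U6 RNA and of the ring that acts in mRNA decay, had signals of 11.21, 10.89 and 11.25 in coculture and of 10.38, 10.52 and 10.45 in monoculture. It was 1.59-fold higher (difference 0.66 ± 0.104, SE, n = 3 and 3, adjusted p = 0.0175 in limma). Lsm12, an LSm protein outside these rings, had signals of 9.95, 9.69 and 9.92 in coculture and of 9.16, 9.27 and 9.23 in monoculture. It was 1.56-fold higher (difference 0.64, adjusted p = 0.00848 in limma).

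Lsm7, which like Lsm3 belongs to both rings, had a difference of 0.57 with no overlap between groups and did not pass (adjusted p = 0.0653 in limma). Lsm10, which belongs to the snRNP that processes histone mRNA and had the brightest LSm probe, had signals of 11.37, 11.55 and 11.21 in coculture and of 11.57, 11.52 and 11.78 in monoculture. It was the only LSm gene with a negative difference, at -0.24 (-0.50 to 0.01, adjusted p = 0.306 in limma). Lsm5 was at background, and Lsm14b was near it at 6.74 to 7.12.

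Of the 7 Prp factors, which were first found as yeast genes of precursor RNA processing, 1 passed as higher. This is 14.3%, against 5.37% of all named genes, and the median difference was 0.07. Prpf40b, a relative of a yeast U1 protein, had signals of 6.76, 6.84 and 6.83 in coculture and was at background in monoculture at 6.62, 6.60 and 6.52. It was at least 1.08-fold higher (adjusted p = 0.0393 in limma), which is a change at the edge of detection. Prpf3, a protein of the U4 and U6 particle with the brightest probe of this family, had a difference of 0.02 (-0.12 to 0.17). Prpf4, its partner in that particle, had a difference of 0.31 (adjusted p = 0.0774 in limma).

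None of the 17 hnRNP genes passed, although the 3 largest differences among all members were found here. The family median was 0.21, and 7 of the genes had an unadjusted p under 0.05 in limma, all with positive differences. Over the 8102 named genes, 1101 had such a p with a positive difference and 963 with a negative one. Hnrnpa2b1, which binds RNA in splicing and transport, had signals of 10.95, 10.63 and 10.71 in coculture and of 9.01, 10.63 and 9.20 in monoculture. Hnrnph1, which binds runs of guanine, had signals of 10.57, 9.71 and 10.27 in coculture and of 9.09, 9.96 and 8.26 in monoculture. Hnrnpa3, a relative of Hnrnpa2b1, had signals of 9.59, 8.93 and 8.87 in coculture and of 7.51, 8.79 and 7.95 in monoculture. In each of them monoculture replicate 2 lay at or near the level of coculture and the other 2 monoculture arrays lay lower.

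The differences of these genes were 1.15 for Hnrnpa2b1 (0.15 to 2.14, adjusted p = 0.202 in limma), 1.08 for Hnrnph1 (0.03 to 2.13, adjusted p = 0.26 in limma) and 1.04 for Hnrnpa3 (0.21 to 1.88, adjusted p = 0.17 in limma). Hnrnpk, a binder of cytosine-rich RNA chosen after its values were seen, had the same form with signals of 9.04, 8.28 and 8.72 in coculture and of 7.29, 8.77 and 7.41 in monoculture (difference 0.86). Monoculture replicate 2 exceeded the mean of the other 2 monoculture arrays by 1.53 in Hnrnpa2b1, 1.42 in Hnrnpk, 1.28 in Hnrnph1 and 1.06 in Hnrnpa3.

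Monoculture replicate 2 was above both other monoculture arrays by more than 0.5 in 73 of the 8102 named genes (0.901%), in 5 of the 93 members (5.38%) and in 4 of the 17 hnRNP genes. The fifth member was Dhx9, a DEAH-box helicase, at 8.45, 9.03 and 8.45 in monoculture. A second probe of Hnrnph1 gave 9.04, 9.80 and 8.40 in monoculture and a second probe of Hnrnpk 6.56, 7.21 and 6.69, so that the pattern was read by separate probes. Of the 3 measured erythroid genes, Hbb-b1 and Hbb-b2 lay at 6.57 to 6.86 on all arrays, and the hemoglobin gene Hba-a1 was also highest in monoculture on replicate 2, at 9.18, 10.82 and 7.83, and lowest of all on coculture replicate 2, at 9.93, 6.87 and 7.77 in coculture. Its part in the hnRNP pattern was not tested. Without monoculture replicate 2 the difference was 1.66 for Hnrnpa2b1 (adjusted p = 0.00549), 1.33 for Hnrnpk (adjusted p = 0.0403), and 1.40 for Hnrnpa3 (adjusted p = 0.0492), and these 3 passed in limma. Hnrnph1 did not pass without it (adjusted p = 0.0793). Leaving out any other single array, none of these 4 passed. Monoculture replicate 2 was the highest monoculture array in all 4, so leaving it out was bound to raise their differences. These calls are therefore no separate support for a difference between the groups.

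Among the other hnRNP genes, Hnrnpdl spread widely in monoculture, at 10.87, 10.52 and 9.87, and its difference of 0.32 did not pass (adjusted p = 0.618 in limma). Hnrnpab, whose probe was the brightest of the family, had signals of 13.98, 13.49 and 13.66 in coculture and of 13.16, 13.32 and 13.25 in monoculture. All coculture arrays were higher, and the difference of 0.47 (0.17 to 0.77) did not pass (adjusted p = 0.0928 in limma). Hnrnpa1, a repressor of splice sites, had signals of 10.33, 9.87 and 10.32 in coculture and of 9.44, 9.29 and 9.68 in monoculture. Its adjusted p was 0.052, just over the threshold, and Hnrnpc, which binds runs of uridine, came to 0.059 at a difference of 0.27, while its second probe passed at 0.33 (adjusted p = 0.0429 in limma). Hnrnpd, Hnrnpf, Hnrnph2 and Hnrnpr were at background on all arrays.

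**Figure D3:**
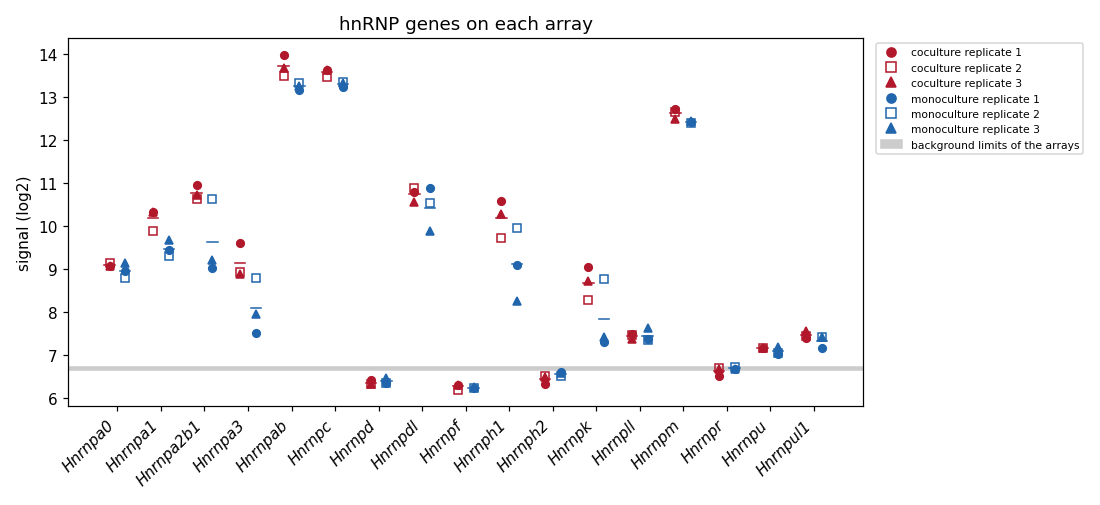
Log2 signal (vertical axis) of the 17 hnRNP genes on each of the 6 arrays, with coculture in red and monoculture in blue, symbols for the replicates, short lines for group means and a grey band for the background limits. The open blue square of monoculture replicate 2 sits among the coculture arrays in Hnrnpa2b1, Hnrnph1 and Hnrnpk and just under them in Hnrnpa3.

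Of the 14 DEAD-box helicases 1 passed as higher (7.14%, near the 5.37% of all named genes), and of the 5 DEAH-box helicases none passed. The medians were 0.07 and 0.20. Ddx6, a helicase that holds mRNA back from translation and acts in its decay, had signals of 6.73, 6.73 and 6.77 in coculture and was at background in monoculture at 6.53, 6.57 and 6.52. It was at least 1.03-fold higher (adjusted p = 0.0338 in limma), again at the edge of detection. Ddx47, which acts in ribosome assembly and had the brightest DEAD-box probe, had signals of 12.17, 11.91 and 12.15 in coculture and of 12.03, 12.06 and 11.98 in monoculture. The groups overlapped, and the interval of its difference was -0.13 to 0.23.

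Of the helicases of ribosome assembly, 0 of 8 measured genes (of 16 listed) passed in either direction in limma, and the median difference was 0.01. No gene of this list had an unadjusted p under 0.05 in limma, against 2064 of the 8102 named genes. The largest difference among them was that of Ddx18, at 0.36 (-0.03 to 0.76, adjusted p = 0.325 in limma). Of 12 listed spliceosome helicases only Dhx15 and Ddx23 were measured. Dhx15, which takes spent spliceosomes apart and had the brightest DEAH-box probe, had signals of 10.77, 10.18 and 10.38 in coculture and of 10.05, 10.27 and 10.19 in monoculture. The difference of 0.28 (-0.08 to 0.63) rested on coculture replicates 1 and 3 and did not pass (adjusted p = 0.425 in limma).

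None of the 3 helicases of the antiviral response passed. Ddx58 (RIG-I), a sensor of viral RNA, lay at 7.46 to 7.74 in coculture and at 7.17 to 7.93 in monoculture. Its relative Dhx58 (LGP2) was above background on 1 coculture array, at 6.84, and Ddx60 was at background throughout.

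The 25 RBM genes, which share an RNA recognition motif but not a common task, were the family without a lean to either side. The median difference was 0.00, 13 differences were positive, and 1 gene passed in each direction. This is 4.0% each, near the 5.37% and 4.65% of all named genes. Rbm10, a regulator of exon choice, had signals of 9.60, 9.51 and 9.67 in coculture and of 9.27, 9.12 and 9.33 in monoculture, a difference of 0.35 ± 0.0712 (SE, n = 3 and 3, adjusted p = 0.0386 in limma). Rbm11, a splicing regulator known from brain and testis, had signals of 6.71, 6.62 and 6.70 in coculture and of 6.85, 6.88 and 6.92 in monoculture, a difference of -0.21 (adjusted p = 0.0479 in limma). Rbm11 was the only member that passed as lower, and 1 of its 3 coculture arrays was above background.

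All coculture arrays were below all monoculture arrays in 5 of the 25 RBM genes and above them in another 5 (20.0%). Over all named genes these shares were 13.6% and 14.6%. Among the 5 below, only Rbm11 passed the test. Rbm47, a partner of the enzyme that edits apolipoprotein B mRNA, had signals of 9.70, 9.82 and 9.18 in coculture and of 9.98, 10.47 and 10.57 in monoculture, and its difference of -0.77 (-1.29 to -0.25) was the most negative of all members (adjusted p = 0.105 in limma). Rbm4b, a paralog of the splicing regulator Rbm4, had signals of 7.72, 7.79 and 7.51 in coculture and of 8.04, 7.93 and 8.23 in monoculture, a difference of -0.39 (adjusted p = 0.0854 in limma). Rbm4 itself came to -0.28 (adjusted p = 0.25 in limma). These 3 genes were named after their values were seen, and the macrophage genes moved the same way on these arrays, whose part in the differences was not tested.

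Rbm42, with the brightest RBM probe, had signals of 10.91, 10.80 and 11.05 in coculture and of 11.24, 10.72 and 11.25 in monoculture. Here monoculture replicate 2 lay below the other 2 monoculture arrays, and the groups overlapped (difference -0.15, -0.52 to 0.22). Rbm38, which regulates mRNA stability downstream of p53, was at 10.83 on monoculture replicate 1 and at 9.87 to 10.14 on the other arrays. Rbm8a, a core protein of the exon junction complex, had a difference of 0.29 (adjusted p = 0.131 in limma). Rbm20, the regulator of titin splicing in heart muscle, was at background on all 6 arrays, as was the Y-linked Rbm31y, also on coculture replicate 2.

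**Figure D4:**
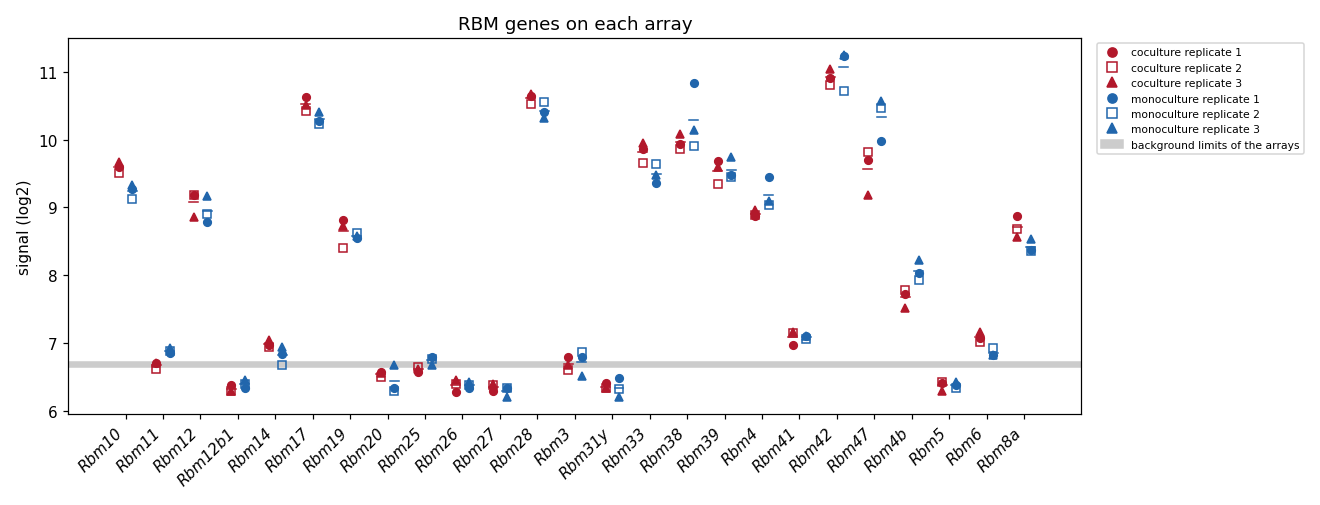
Log2 signal (vertical axis) of the 25 RBM genes on each of the 6 arrays, with coculture in red and monoculture in blue, symbols for the replicates, short lines for group means and a grey band for the background limits. Rbm10 is higher on all 3 coculture arrays, while Rbm47 and Rbm4b are lower on all 3, and many genes lie at or under the grey band.

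Where a gene had several probes, they mostly leaned the same way. In 8 members at least 2 probes were above background on all 6 arrays, and in 7 of them all such probes had positive differences. The 3 probes of Snrpa gave 0.66, 0.93 and 0.99, those of Lsm12 gave 0.64, 0.46 and 0.26, and those of Snrpb gave 0.30 and 0.52. The exception was Rbm39, a cofactor of U2AF, whose brightest probe gave -0.02 and whose other probe passed at 0.41 (adjusted p = 0.023 in limma). No member had probes that passed in opposite directions.

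**Figure D5:**
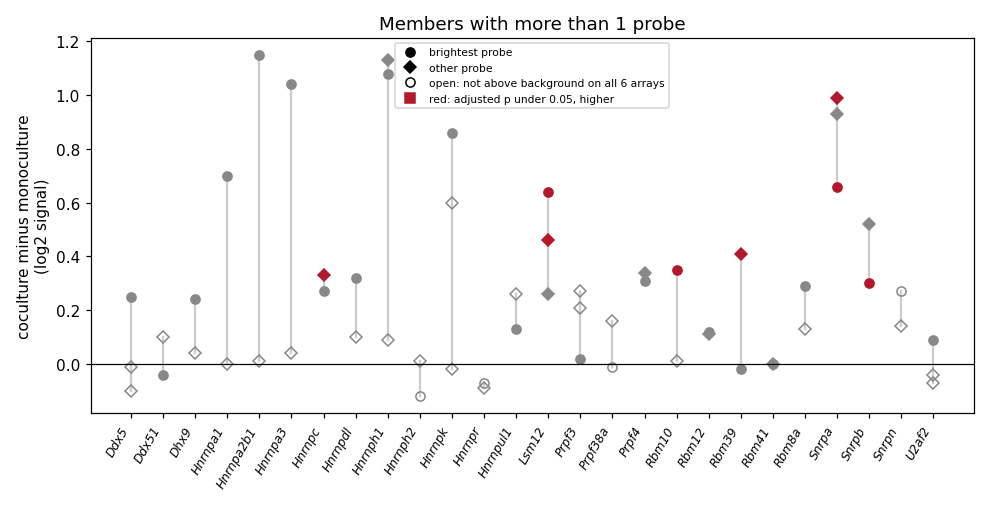
Difference between coculture and monoculture in log2 signal (vertical axis) at every probe of the 26 members with more than 1 probe; circles are the brightest probes, diamonds the other probes, open symbols probes not above background on all 6 arrays, and red marks an adjusted p under 0.05. The 3 probes of Snrpa lie at 0.66 to 0.99, and the 2 probes of Rbm39 lie apart at -0.02 and 0.41.

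Other genes of the pathway, taken as lists, passed as higher in a few cases and in none as lower, against 5.37% and 4.65% of all named genes. Among named genes with a mean signal of 9 to 11, 13.3% passed as higher and 10.7% as lower. From 11 upward, 16.0% and 9.8% did. Of 19 measured genes for other spliceosome proteins (of 52 listed), 2 were higher (10.5%), with a list median of 0.19. Ppih, a cyclophilin of the U4 and U6 particle, had signals of 10.43, 10.33 and 10.38 in coculture and of 9.39, 9.34 and 9.48 in monoculture, a difference of 0.98 (adjusted p = 0.000932 in limma). Puf60, which binds near the end of the intron together with U2AF, differed by 0.25 (adjusted p = 0.0272 in limma).

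Of 6 measured genes of the SMN complex and of the methylation of Sm proteins, which load the Sm ring onto snRNA, 1 was higher (16.7%). Gemin6, whose protein is folded like an Sm protein, had signals of 9.31, 8.70 and 9.34 in coculture and of 8.22, 8.18 and 8.27 in monoculture, a difference of 0.89 (adjusted p = 0.0315 in limma). Prmt5, the enzyme that methylates Sm proteins, did not pass at 0.65 (adjusted p = 0.063 in limma).

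Of 29 measured splicing kinases and other regulators, 2 were higher (6.90%), which is near the share of all named genes, and the list median was 0.11. Tra2b, an activator of exon inclusion, had signals of 9.93, 9.37 and 9.62 in coculture and of 8.45, 8.95 and 8.53 in monoculture, a difference of 1.00 (adjusted p = 0.0278 in limma). Ptbp1, a repressor of exons that binds pyrimidine tracts, had signals of 11.60, 11.67 and 11.61 in coculture and of 11.05, 11.08 and 11.22 in monoculture, a difference of 0.51 (adjusted p = 0.00663 in limma). Of 16 measured genes of the exon junction complex, mRNA export and decay, 2 export factors were higher (12.5%), Thoc7 by 0.53 (adjusted p = 0.0214 in limma) and Alyref by 0.36 (adjusted p = 0.0395 in limma), and the list median was 0.06. The genes of these lists that are no members were named after their values were seen.

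Of the 12 members that passed, Snrpg, Snrpa and Lsm12 also passed in each of the 6 analyses that left out 1 array, and Ddx6, Prpf40b and Rbm11, the genes near background, passed in none of them. Lsm3 passed in 4, Sf3b5 in 3, Snrpc, Snrpd3 and Rbm10 in 2 and Snrpb in 1, so that 3 of the 5 snRNP calls were lost in most of these analyses. The direction of all 12 was the same in all 6.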

How the data were processed

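The authors hybridized biotin-labelled cRNA to mouse bead arrays, averaged beads after removing outliers and normalized the arrays by quartile; the deposited values used here are on the log2 scale, with 1 column per array. The 12 columns of a second, non-normalized table carry numbers that could not be tied to samples and were not used. Arrays were grouped by their titles. Probes were named by the Entrez Gene ID within the probe ID, through the RefSeq gene table of GRCm38.p6, which named 9796 of 46628 probes (8102 genes) and left 36832 without a name. Members had 126 probes. Differences were fitted over all probes with limma 3.58.1 in R 4.3.3 (lmFit and eBayes, Benjamini-Hochberg), after a check on simulated data. The background limit was chosen after values were seen. The members and lists were chosen with earlier results of these data known. Text names were taken by rule: in each family the brightest member and up to 3 that passed in each direction with the largest differences, members whose probes passed in opposite directions, and the 3 largest differences that did not pass; other names are marked or were also chosen after their values were seen. No sequences or coordinates were used here. Alternatives were centring, the mean of all probes, a signal filter, a variance trend, the replicate number as a block, a fold threshold and leaving out arrays.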

Additional observations from a re-analysis of the deposited data

How the results depend on the processing

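The main analysis passed 12 members (11 higher, 1 lower), with a median difference of 0.11. Counts were within 1.5 times of these with arrays centred (13 members), with the mean of all probes of a gene (14), with only probes above the median signal (14 of 78 members fitted), with a variance trend (9) and with the replicate number as a block (8). In these settings, in this order, 5.57%, 5.86%, 9.77%, 4.51% and 3.38% of named genes passed as higher. The members' shares were 12.9%, 14.0%, 17.9%, 8.6% and 8.6%, and in the main analysis 11.8% against 5.37%. With the signal filter 14 were higher and 0 lower. With more than 1.5-fold required as well, 3 passed, 3 higher and 0 lower. Leaving out 1 array gave 3 to 17 passing members, 3 to 17 higher and 0 to 0 lower, with a median difference of 0.10 to 0.14. The lowest count, 3, came without monoculture replicate 1 and the highest, 17, without coculture replicate 2; counts were 4 without coculture replicate 1, 5 without coculture replicate 3, 7 without monoculture replicate 2 and 9 without monoculture replicate 3. Fewer arrays enter these fits, and the cause of the differences between them was not tested. Without both arrays numbered 2, a setting chosen after seeing the data, 10 members (10.8%) were higher and 0 lower. Of named genes, 3.88% were higher and 3.16% lower in that setting. Of these 10 members, 4 were among the 12, and the median difference was 0.15.

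Same-numbered arrays deviated from their group means with correlations of -0.11, -0.11 and -0.10, and the other pairs of arrays with correlations of 0.02 to 0.09. Whether the replicate numbers pair the arrays cannot be told from these values, because the deviations of the 3 arrays in a group sum to 0. With the replicate block, 8 members passed, 8 higher and 0 lower, of which 5 were among the 12. Of the named genes' values under the alternatives, 199 kept their side of the threshold, 46 no longer passed, 7 newly passed and 0 that passed turned their sign. Prpf3, at 0.02 and not passing in any setting, turned to -0.02 without coculture replicate 3 and -0.01 without monoculture replicate 3. Probes at background, as for 17 members on all arrays, limit what can be seen for their genes.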
